A study of Homo sapiens with 18 samples.

Results

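The TFEB family and its folliculin regulators were followed across RNA interference against MondoA or Mlx and doxorubicin treatment of RPE-1 cells, an hTERT-immortalized line from human retinal pigment epithelium. The 10 genes were chosen by name and role, with earlier results of these data known: the transcription factor genes TFEB, TFE3 and MITF, the folliculin gene FLCN, its partner genes FNIP1 and FNIP2, and the Rag GTPase genes RRAGA, RRAGB, RRAGC and RRAGD. All 10 were among the 33121 genes in the deposited count table, and 9 of them passed the low-count filter with 13676 genes in all. RRAGD did not, with 28 reads over all 18 libraries. The libraries form 6 groups of 3: doxorubicin (DXR) with siMondoA, DXR with siMlx, DXR with siControl, and the same siRNAs in untreated cells. All groups are the same cell line and all were transfected, so the controls carry an siRNA too, which the library names call siLuci. DXR, which damages DNA, was given at 150 ng/ml for 3 days after the transfection. The library names tag untreated libraries D0 and DXR libraries D5, and no label explains the tags, so the drug and the day of harvest cannot be told apart. No label says that the libraries of a group come from separate cultures, so p-values measure the spread between these libraries.

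TFEB, TFE3 and MITF are related basic helix-loop-helix leucine zipper factors that switch on lysosomal and autophagy genes through a CACGTG-type element. They are held in the cytoplasm when the kinase complex mTORC1 phosphorylates them at the lysosome. Rag GTPases, pairs of RagA or RagB with RagC or RagD, bring mTORC1 there when amino acids are plentiful, and folliculin with FNIP1 or FNIP2 acts on RagC and RagD and so lets mTORC1 phosphorylate these factors. MondoA, encoded by MLXIP, and its partner Mlx are also basic helix-loop-helix leucine zipper factors that bind E-box-type elements of glucose-responsive genes. In retinal pigment epithelium, MITF is known as a regulator of pigment cell identity.

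Total counts per library ran from 15503423 to 29219280. Over the 18 replicate pairs the lowest correlation of log2 CPM was 0.9901. MLXIP averaged 2.36 CPM (library-size scaled counts, with TMM factors) in DXR siMondoA cells and 64.6 CPM in DXR siControl cells, and 3.85 CPM in untreated siMondoA cells and 68.7 CPM in untreated siControl cells. MLX averaged 5.52 CPM in DXR siMlx cells and 26.5 CPM in DXR siControl cells, and 7.0 CPM in untreated siMlx cells and 26.3 CPM in untreated siControl cells. With siMondoA, MLX stood at 43.8 CPM with DXR and 49.2 CPM in untreated cells. TXNIP, a target of MondoA, was below its siControl level with both siRNAs: it averaged 4.28 CPM with siMondoA, 9.44 CPM with siMlx and 63.0 CPM with siControl under DXR. Of 16 retinal pigment epithelium markers 8 were abundant enough to test. OTX2, KRT8, KRT18 and EZR were present, whereas the defining genes RPE65 (60 reads over all libraries), RLBP1 (21), TYR (17) and DCT (3) were near 0.

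The start regions of 3 members are shown because they hold the CACGTG element that both protein families recognise. Of the 10 members, 8 matched the RefSeq promoter table (GRCh38.p14), which gives 250 bases before to 50 bases after each start. Over all 35116 promoters in that table, 7.26% hold CACGTG, which reads the same on both strands, and 0.98% hold TCACGTGA, which contains it. FNIP1 holds it at -175 and -94 from the start, RRAGB at -115, -25 and 7, of which 1 is the longer TCACGTGA, and RRAGC at -112. The windows of TFEB (3 starts), MITF (3), FNIP2 (2), FLCN and TFE3 hold none, which says only that these letters are not in these windows. CACGTG is in capitals, and a match is not evidence of binding.
FNIP1 (chr5:131796968-131797267, minus strand): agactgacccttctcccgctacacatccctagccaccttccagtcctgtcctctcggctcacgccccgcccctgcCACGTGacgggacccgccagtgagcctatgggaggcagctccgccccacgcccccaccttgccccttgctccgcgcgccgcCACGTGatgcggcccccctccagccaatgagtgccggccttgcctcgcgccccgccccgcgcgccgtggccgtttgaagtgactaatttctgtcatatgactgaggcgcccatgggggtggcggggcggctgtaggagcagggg
RRAGB (chrX:55717499-55717798, plus strand): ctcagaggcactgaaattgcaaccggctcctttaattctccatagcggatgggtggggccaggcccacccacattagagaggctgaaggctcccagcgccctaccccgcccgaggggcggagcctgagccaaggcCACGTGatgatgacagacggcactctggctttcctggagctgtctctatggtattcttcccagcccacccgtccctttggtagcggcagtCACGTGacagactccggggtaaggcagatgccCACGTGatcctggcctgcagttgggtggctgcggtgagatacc
RRAGC (chr1:38859723-38860022, minus strand): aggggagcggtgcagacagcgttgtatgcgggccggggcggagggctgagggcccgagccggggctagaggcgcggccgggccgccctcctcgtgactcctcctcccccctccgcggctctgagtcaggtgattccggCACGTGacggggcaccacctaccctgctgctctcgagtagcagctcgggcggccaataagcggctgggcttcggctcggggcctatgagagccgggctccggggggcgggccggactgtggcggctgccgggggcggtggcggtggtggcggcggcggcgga

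Per length, the members differed widely. In the authors' RPKM, which divides reads by gene length and by library size, averaged over all 18 libraries, RRAGA was highest at 66.9, followed by TFE3 at 36.0, RRAGC at 24.5, FNIP2 at 6.84, FLCN at 6.04, FNIP1 at 5.11, MITF at 4.58, RRAGB at 3.36, TFEB at 1.99 and RRAGD at 0.0158. In untreated siControl cells the order was the same down to FNIP2. There MITF (5.21 to 5.77 RPKM) and FLCN (5.07 to 5.48 RPKM) overlapped, while the other neighbours among the 9 tested members did not. Among the transcription factors TFE3 led in every group: the ratio of TFE3 to TFEB, both in RPKM, averaged 14.5 ± 1.73 (SD, n = 3 here and below) in DXR siControl cells and 21.8 ± 1.58 in untreated siControl cells. Among the RagA and RagB genes, RRAGA led RRAGB by 18.4 ± 0.463 in DXR siControl cells and 32.9 ± 4.39 in untreated siControl cells, on the same scale. RRAGD (chromosome 6, 89364636 to 89412270, GRCh38), the alternative to RRAGC, had 0 to 4 reads per library, with 4, 8 and 5 reads summed over the DXR siMondoA, siMlx and siControl groups and 1, 7 and 3 over the untreated ones, too few for a fold change. A level per length depends on the transcripts behind the authors' gene length, and MITF in particular has several starts.

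**Figure D1:**
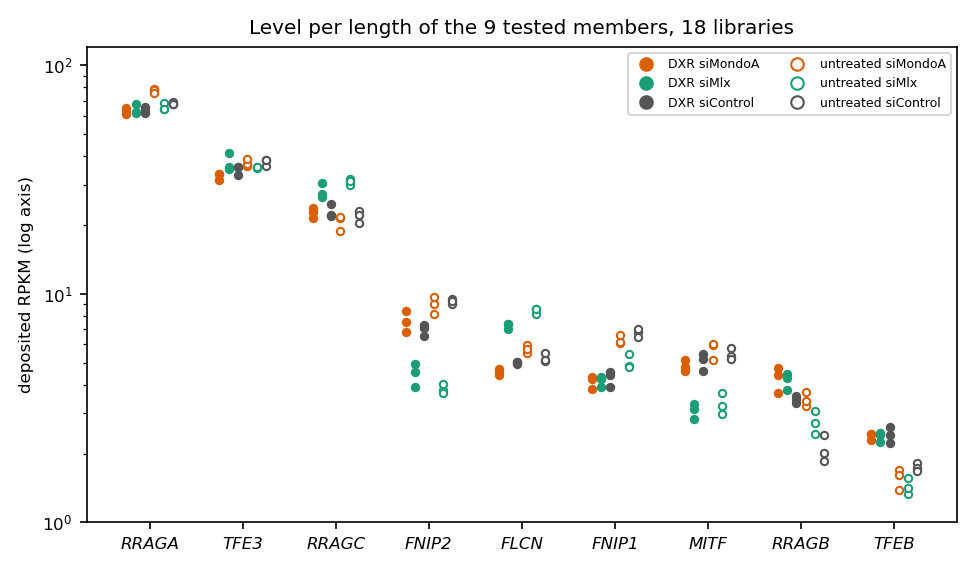
Deposited RPKM (log axis) of the 9 tested members, 1 point per library, with DXR groups as filled and untreated groups as open points. RRAGA averages 66.9 RPKM over all libraries and TFEB 1.99 RPKM, and the 3 siMlx points of FNIP2 and MITF in each condition lie below the other groups of those genes.

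The members moved by different amounts. On a log2 scale the 6 group means of CPM spanned 1.30 for FNIP2, 1.11 for RRAGB, 0.86 for TFEB, 0.79 for MITF and for FLCN, 0.63 for FNIP1 and 0.59 for RRAGC. TFE3 spanned 0.22 and RRAGA 0.23, and these are the members with the highest RPKM.

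**Figure D2:**
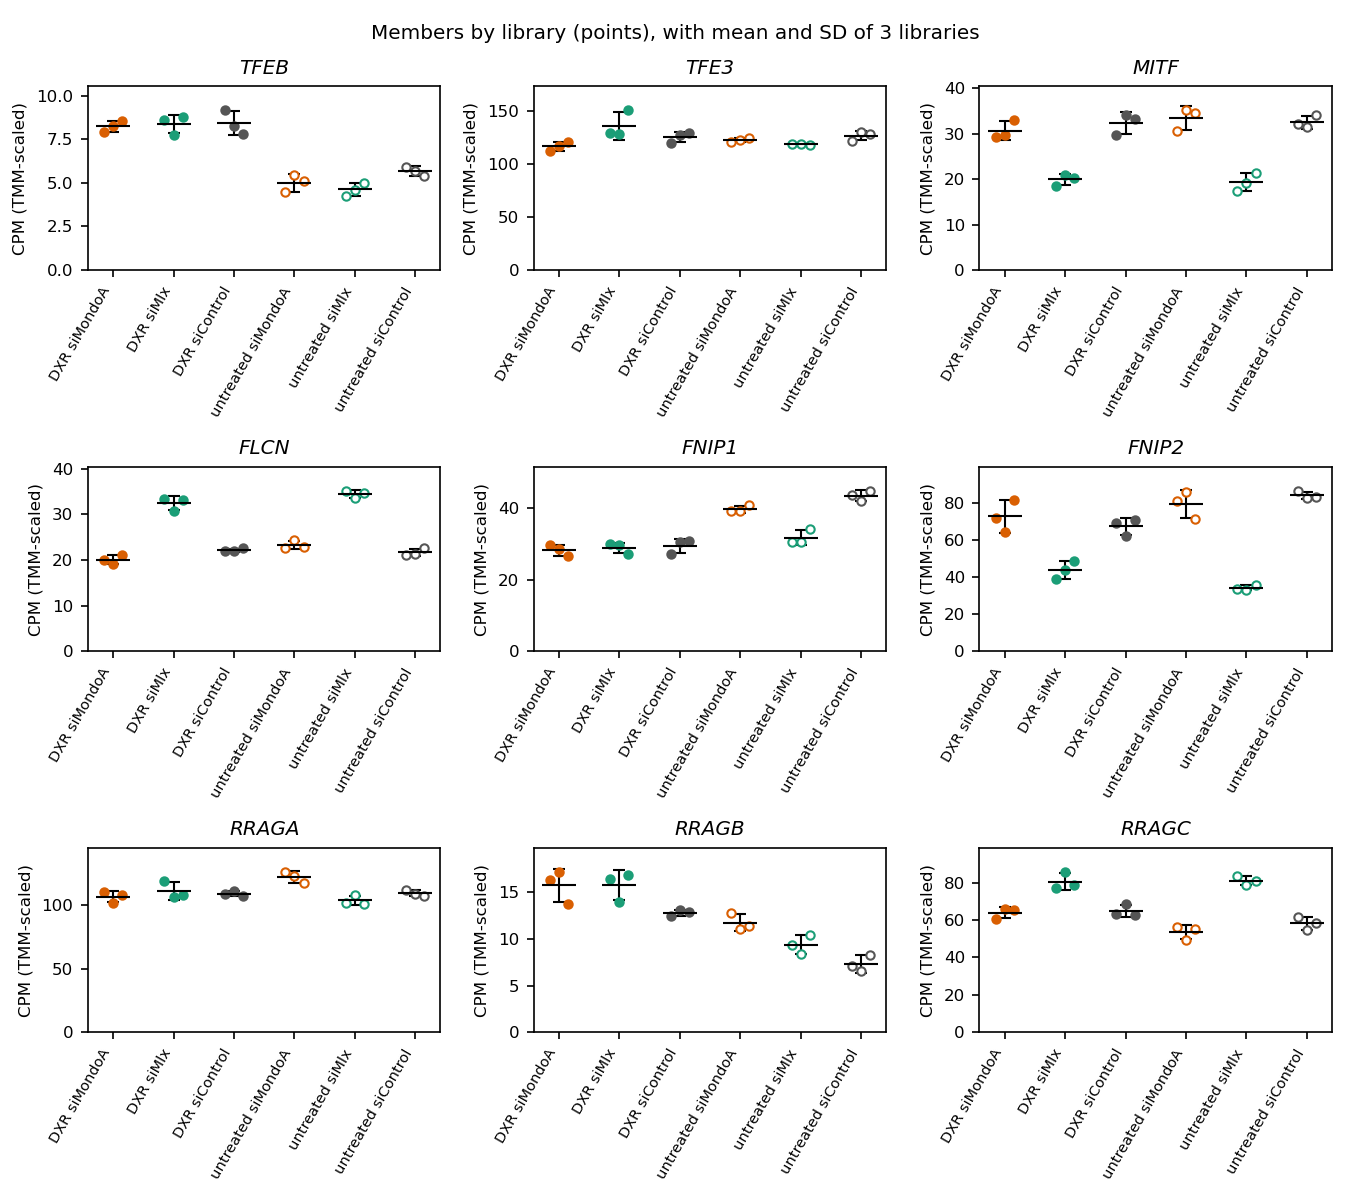
TMM-scaled CPM of the 9 tested members in each library, with mean and SD of 3 libraries, and DXR groups as filled points left of untreated groups as open points. The siMlx libraries stand apart for MITF, FLCN, FNIP2 and RRAGC in both conditions, and the DXR libraries for TFEB.

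The first question is what loss of Mlx did to these genes. In untreated cells 7 of the 9 tested members passed the test with siMlx (quasi-likelihood test of edgeR, with p adjusted by Benjamini-Hochberg below 0.05), where 47.9% of all tested genes did. FNIP2, MITF, FNIP1 and TFEB fell, and FLCN, RRAGC and RRAGB rose. Thus the folliculin gene rose while both genes of its partners fell.

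Both FNIP genes fell in untreated siMlx cells, FNIP2 further. FNIP2 (chromosome 4, 158769138 to 158908049, GRCh38 in GENCODE release 29 here and below) stood at 33.7, 33.0 and 35.7 CPM in untreated siMlx libraries, against 86.3, 82.3 and 83.2 CPM in untreated siControl libraries. The groups do not overlap, and siMlx left 40.7% of the control level (log2 fold change -1.30, SE 0.0905, edgeR adjusted p = 4.91e-10). FNIP1 (chromosome 5, 131641714 to 131797063), 3.54% of whose exonic bases are shared with the unlisted same-strand gene AC008695.1, had 30.5, 30.5 and 34.2 CPM with siMlx, against 43.8, 41.9 and 44.8 CPM with siControl. Its groups are also apart, with a smaller difference (log2 fold change -0.45, SE 0.0664, adjusted p = 1.24e-05). The ratio of FNIP2 to FNIP1 per length, in RPKM, was 0.765 ± 0.0211 in untreated siMlx cells and 1.37 ± 0.0454 in untreated siControl cells. The order of the pair was thus turned per length only, as FNIP2 had more CPM than FNIP1 in each untreated siMlx library. Under DXR the RPKM ratio was 1.08 ± 0.172 with siMlx and 1.63 ± 0.181 with siControl.

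FLCN (chromosome 17, 17212212 to 17237188), which encodes folliculin, was higher in every untreated siMlx library than in any control. It stood at 35.1, 33.5 and 34.7 CPM with siMlx, against 21.1, 21.4 and 22.5 CPM with siControl (log2 fold change 0.67, SE 0.0606, edgeR adjusted p = 2.18e-08). FLCN shares 11.9% of its exonic bases with AC055811.2, a gene on the same strand that the table does not list, so part of its reads could belong to either.

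Of the transcription factor genes, MITF (chromosome 3, 69739435 to 69968337) fell most. Its libraries stood at 17.5, 19.1 and 21.4 CPM with siMlx, against 32.1, 31.4 and 34.1 CPM with siControl, with a clear gap between the groups. The siMlx level was 59.5% of the control (log2 fold change -0.75, SE 0.0845, edgeR adjusted p = 4.57e-07). TFEB (chromosome 6, 41683978 to 41736259) had 4.27, 4.59 and 5.01 CPM with siMlx, against 5.92, 5.70 and 5.37 CPM with siControl (log2 fold change -0.29, SE 0.11, adjusted p = 0.0409). The groups do not overlap, but the call was lost in 8 of 13 alternatives, among them those without untreated siControl replicate 1 (adjusted p = 0.125) or 2 (0.0755) and without untreated siMlx replicate 1 (0.141) or 2 (0.0928). TFE3 (chromosome X, 49028726 to 49043486), at 118 to 119 CPM with siMlx and 122 to 130 CPM with siControl, did not pass (log2 fold change -0.10, 95% interval -0.22 to 0.02, adjusted p = 0.168).

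The Rag genes went in more than one direction. RRAGC (chromosome 1, 38838198 to 38859823), whose protein is one that folliculin acts on, stood at 83.4, 78.9 and 80.9 CPM in untreated siMlx libraries, against 61.8, 54.5 and 58.2 CPM in untreated siControl libraries. No library overlapped, and RRAGC rose (log2 fold change 0.48, SE 0.0639, edgeR adjusted p = 4.26e-06), though 22.9% of its exonic bases lie in AL139260.2, an unlisted gene on the same strand. RRAGB (chromosome X, 55717739 to 55758774), of low abundance, had 9.38, 8.38 and 10.4 CPM with siMlx, against 7.06, 6.52 and 8.33 CPM with siControl (log2 fold change 0.36, SE 0.12, adjusted p = 0.0181). Its groups do not overlap, but the call was lost without untreated siControl replicate 1 (adjusted p = 0.0636) or 2 (0.0776) and without untreated siMlx replicate 3 (0.0997). RRAGA (chromosome 9, 19049395 to 19050983), the more abundant of the RagA and RagB genes, did not pass (log2 fold change -0.08, 95% interval -0.19 to 0.03, adjusted p = 0.246).

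**Figure D3:**
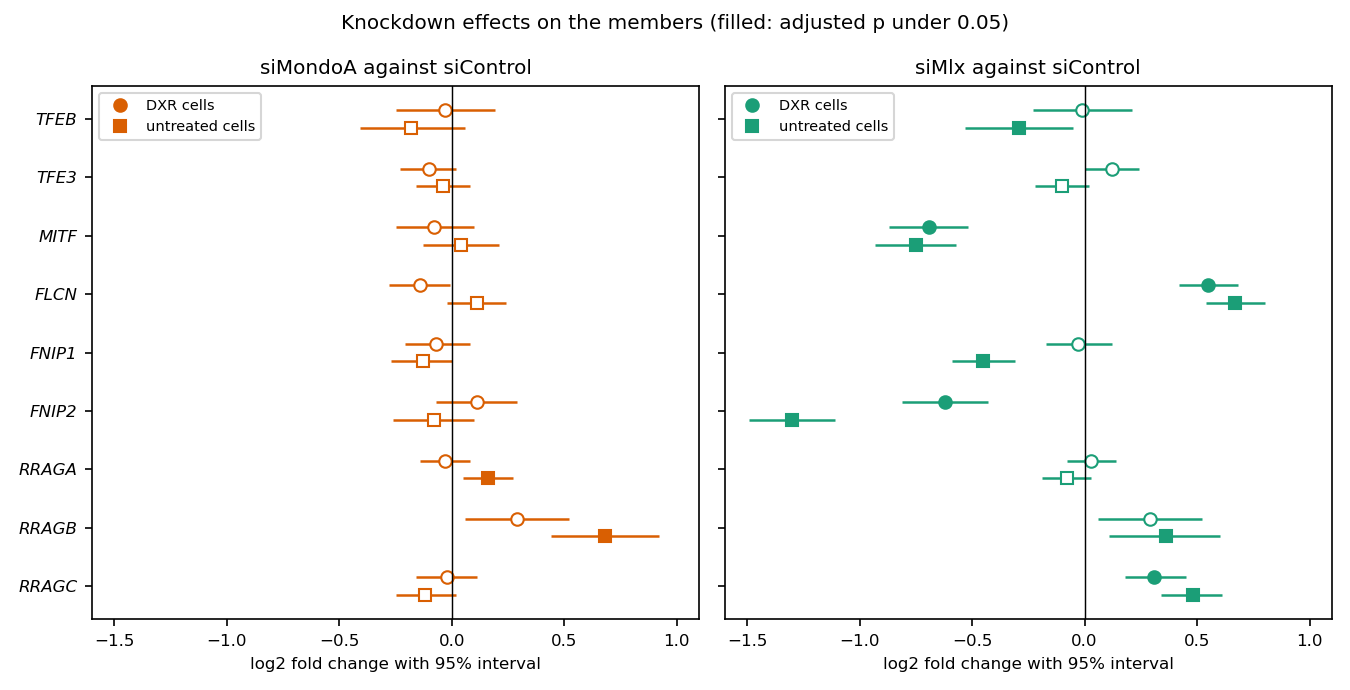
Log2 fold changes with 95% intervals of the 9 tested members for siMondoA (left) and siMlx (right) against siControl, with circles for DXR and squares for untreated cells, filled where the edgeR adjusted p is below 0.05. With siMlx, FNIP2 reads -0.62 with DXR and -1.30 in untreated cells, while with siMondoA RRAGB (0.68) and RRAGA (0.16), both in untreated cells, are the filled points.

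Under DXR, 4 of the 9 members passed the test with siMlx, against 30.2% of all tested genes. MITF and FNIP2 fell, and FLCN and RRAGC rose. MITF stood at 18.6, 20.9 and 20.3 CPM in DXR siMlx libraries, against 29.6, 34.1 and 33.2 CPM in DXR siControl libraries (log2 fold change -0.69, SE 0.0854, edgeR adjusted p = 3.55e-06). FLCN had 33.4, 30.7 and 33.2 CPM with siMlx, against 21.9, 22.0 and 22.5 CPM with siControl (log2 fold change 0.55, SE 0.0616, adjusted p = 1.07e-06). Neither gene's groups overlap.

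FNIP2 also remained lower with siMlx under DXR, at 39.0, 43.8 and 48.6 CPM, against 68.9, 62.0 and 70.9 CPM with siControl. The groups are apart but closer than in untreated cells, and the siMlx level was 65.1% of the control (log2 fold change -0.62, SE 0.0899, edgeR adjusted p = 2.56e-05). RRAGC had 77.2, 85.7 and 78.7 CPM with siMlx, against 63.4, 68.8 and 62.7 CPM with siControl (log2 fold change 0.31, SE 0.0642, adjusted p = 0.000984).

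The remaining members did not pass with siMlx under DXR. RRAGB had 16.5, 14.0 and 16.9 CPM with siMlx, against 12.5, 13.1 and 12.9 CPM with siControl, without overlap (log2 fold change 0.29, 95% interval 0.06 to 0.52, edgeR adjusted p = 0.0511). It passed in 6 of 13 alternatives. These were upper-quartile scaling (adjusted p = 0.0254), RLE scaling (0.0477), a filter of at least 1 CPM (0.0475), the contrast's groups alone (0.0411), the replicate number as a block (0.0452) and the fit without DXR siMlx replicate 2 (0.0245). FNIP1, at 27.3 to 29.9 CPM with siMlx and 27.2 to 30.7 CPM with siControl, overlapped fully (log2 fold change -0.03, 95% interval -0.17 to 0.12, adjusted p = 0.807). TFEB (-0.01, 95% interval -0.23 to 0.21), TFE3 (0.12, -0.00 to 0.24) and RRAGA (0.03, -0.08 to 0.14) had log2 fold changes that did not pass either.

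Whether siMlx acted differently under DXR was tested as an interaction, the siMlx effect with DXR minus that without. FNIP2 and FNIP1, 2 of the 9 members, passed, where 12.2% of all tested genes did. The interaction was log2 0.68 for FNIP2 (SE 0.13, edgeR adjusted p = 0.00148) and 0.43 for FNIP1 (SE 0.1, adjusted p = 0.00603), so that the siMlx effect was less negative under DXR for both. For MITF it was 0.06 (95% interval -0.20 to 0.31), for FLCN -0.12 (-0.30 to 0.06), for RRAGC -0.17 (-0.36 to 0.02) and for TFEB 0.28 (-0.04 to 0.61), none past the test. For TFE3 the interaction of 0.22 had an adjusted p of 0.0929, which became 0.0328 without DXR siMlx replicate 1.

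An siRNA can also lower transcripts that match its seed in the 3′ UTR, and none of the labels gives the siRNA sequences. The 7-base 3′ UTR words most associated with lower siMlx values in untreated cells, ranked on these same data, began with AATGAGA. The next was ATGAGAA, which overlaps it, and the last of the 3 considered was TCTCTTA. Of 4211 genes that hold at least 1 of them, 36.0% were called lower, and of the rest 18.2% were. Of the members, MITF and FNIP1 hold 2 of the words, FNIP2 and RRAGC hold 1, and the other 5 tested members hold none. The 2 words overlap in place, starting at 3′ UTR positions 1941 and 1942 in MITF and 757 and 758 in FNIP1. Words of this length are common in long 3′ UTRs: 74.2% of genes with a 3′ UTR at least as long as that of MITF hold 1 or more, as do 72.8% for FNIP1 and 78.2% for FNIP2. RRAGC holds a word and rose. The words ranked in the same way for siMondoA in untreated cells are held by the same genes, 1 each in MITF, FNIP1 and RRAGC and 2 in FNIP2, and none of these genes passed with siMondoA there. The sites are shown with the word in capitals, from GENCODE release 29 transcripts on GRCh38, since 3 of the 4 genes that fell carry one; their part in the result was not tested.
MITF (chr3:69967179-69967205, plus strand): cacgctgggcAATGAGAatccttggaa
FNIP1 (chr5:131643912-131643938, minus strand): agattcccaaAATGAGAatactacttt
FNIP2 (chr4:158904625-158904651, plus strand): tgtcaaaagcATGAGAAgagcaaacag
RRAGC (chr1:38838979-38839005, minus strand): atattgaagaAATGAGAgaaaatttta

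With siMondoA in untreated cells 2 of the 9 members passed, both higher, where 46.6% of all tested genes passed. RRAGB, one of the paralogous RagA-type genes, stood at 12.8, 11.1 and 11.4 CPM in untreated siMondoA libraries, against 7.06, 6.52 and 8.33 CPM in untreated siControl libraries. The groups are separate, and the level was 1.60-fold the control (log2 fold change 0.68, SE 0.12, edgeR adjusted p = 7.33e-05). RRAGA had 126, 123 and 117 CPM with siMondoA, against 112, 109 and 107 CPM with siControl (log2 fold change 0.16, SE 0.0526, adjusted p = 0.0204). That small difference was no longer called without untreated siControl replicate 2 (adjusted p = 0.0506) or 3 (0.0703), or without untreated siMondoA replicate 1 (0.083) or 2 (0.0641).

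The other members moved little with siMondoA in untreated cells. FNIP2 (log2 fold change -0.08, 95% interval -0.26 to 0.10), FNIP1 (-0.13, -0.27 to 0.00) and FLCN (0.11, -0.02 to 0.24) did not pass. Neither did TFEB (-0.18, -0.41 to 0.06), TFE3 (-0.04, -0.16 to 0.08), MITF (0.04, -0.13 to 0.21) or RRAGC (-0.12, -0.25 to 0.02). FLCN passed in 1 of 13 alternatives, upper-quartile scaling (log2 fold change 0.16, edgeR adjusted p = 0.0412).

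Under DXR none of the 9 members passed with siMondoA (edgeR), where 24.8% of all tested genes did. At an unadjusted p below 0.05 there were 2, RRAGB and FLCN, and DESeq2 called 0. RRAGB had 16.3, 17.2 and 13.8 CPM in DXR siMondoA libraries, against 12.5, 13.1 and 12.9 CPM in DXR siControl libraries, without overlap (log2 fold change 0.29, 95% interval 0.06 to 0.52, adjusted p = 0.0571). It passed in 3 of 13 alternatives, with the replicate number as a block (adjusted p = 0.0467), with upper-quartile scaling (0.0456) and without DXR siMondoA replicate 3 (0.023). FLCN had 20.0, 19.1 and 21.0 CPM with siMondoA, against 21.9, 22.0 and 22.5 CPM with siControl (log2 fold change -0.14, 95% interval -0.28 to -0.01, adjusted p = 0.115). The interaction of siMondoA with DXR passed for 0 of the 9 members with edgeR, where 10.1% of all tested genes passed. At an unadjusted p below 0.05 it held FLCN (-0.25), RRAGA (-0.18) and RRAGB (-0.38, adjusted p = 0.139), and DESeq2 called 0.

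The siRNAs were also compared with each other, since MondoA is thought to act through Mlx. In untreated cells 7 of the 9 members differed between siMondoA and siMlx, where 58.9% of all tested genes did. FNIP2 was 2.32-fold higher with siMondoA than with siMlx (log2 fold change 1.22, SE 0.0912, edgeR adjusted p = 7.79e-10), MITF 1.73-fold higher (log2 0.79) and FNIP1 1.25-fold higher (log2 0.32). RRAGA (0.23) and RRAGB (0.32) were also higher with siMondoA, the RRAGB call being lost without untreated siMlx replicate 1 (adjusted p = 0.0506) or 2 (0.116) and without untreated siMondoA replicate 1 (0.0997). RRAGC (-0.60) and FLCN (-0.56) were lower with siMondoA than with siMlx.

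Under DXR 5 members differed between the siRNAs, where 39.0% of all tested genes did. FNIP2 (log2 fold change 0.73, adjusted p = 2.18e-06) and MITF (0.62) were higher with siMondoA than with siMlx. FLCN (-0.69, adjusted p = 3.05e-08), RRAGC (-0.33) and TFE3 (-0.22, adjusted p = 0.0051) were lower. RRAGB stood at a log2 fold change of 0.00 (95% interval -0.22 to 0.23, edgeR adjusted p = 0.99). Each of these comparisons uses the libraries already set against siControl, so they are not further evidence for the siMlx values.

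TFEB and RRAGB rose under DXR with every siRNA. With siMondoA 6 of the 9 members passed, 3 higher and 3 lower, where 54.2% of all tested genes passed. With siMlx 4 passed, all higher, against 62.1% of all genes. With siControl 5 passed, 3 higher and 2 lower, against 56.7% of all genes. In bulk RNA, fewer cells of a kind and less RNA per cell cannot be told apart.

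TFEB, the least abundant of the tested members per length, was above its untreated level in every DXR library. It stood at 7.92, 8.26 and 8.54 CPM in DXR siMondoA libraries, against 4.45, 5.46 and 5.08 CPM in untreated siMondoA libraries (log2 fold change 0.72, SE 0.11, edgeR adjusted p = 2.38e-05). With siMlx it had 8.61, 7.76 and 8.75 CPM under DXR, against 4.27, 4.59 and 5.01 CPM in untreated cells (log2 fold change 0.85, SE 0.11, adjusted p = 1.96e-06). With siControl it had 9.17, 8.24 and 7.82 CPM under DXR, against 5.92, 5.70 and 5.37 CPM in untreated cells (log2 fold change 0.57, SE 0.11, adjusted p = 0.000138). No DXR library of TFEB overlaps an untreated one. Its raw counts were the lowest of the tested members, at 76 to 180 per library, which gives a counting error of 7.45 to 11.5% (coefficient of variation). MITF passed with no siRNA (log2 fold changes -0.13, 0.04 and -0.01 with siMondoA, siMlx and siControl), and TFE3 with siMlx (0.20, adjusted p = 0.00564) but not without DXR siMlx replicate 3 (0.0641).

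RRAGB rose under DXR with siMondoA (log2 fold change 0.42, SE 0.11, edgeR adjusted p = 0.00326), with siMlx (0.74, adjusted p = 1.18e-05) and with siControl (0.81, adjusted p = 6.17e-06). In siControl cells it had 12.5, 13.1 and 12.9 CPM under DXR, against 7.06, 6.52 and 8.33 CPM in untreated cells, without overlap. RRAGC rose with siMondoA (0.25, adjusted p = 0.00299), stood at -0.01 with siMlx, and passed with siControl at 0.16 (adjusted p = 0.0432). The last was not called without untreated siControl replicate 2 (adjusted p = 0.187) or 3 (0.0903) or without DXR siControl replicate 1 (0.0571) or 2 (0.244). RRAGA fell slightly with siMondoA (-0.19, adjusted p = 0.00549) and did not pass with siMlx (0.10) or siControl (-0.00).

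The FNIP genes fell under DXR in siControl cells. FNIP1 had 27.2, 30.6 and 30.7 CPM in DXR siControl libraries, against 43.8, 41.9 and 44.8 CPM in untreated siControl libraries (log2 fold change -0.56, SE 0.0665, edgeR adjusted p = 7.02e-07). Its groups are well apart, and in siMondoA cells it also fell (-0.49, SE 0.0681, adjusted p = 5.46e-06), whereas with siMlx it did not pass (-0.13, 95% interval -0.28 to 0.01, adjusted p = 0.0964). FNIP2 had 68.9, 62.0 and 70.9 CPM in DXR siControl libraries, against 86.3, 82.3 and 83.2 CPM in untreated siControl libraries (log2 fold change -0.32, SE 0.0865, adjusted p = 0.00389). With siMlx, FNIP2 rose under DXR, with 39.0, 43.8 and 48.6 CPM against 33.7, 33.0 and 35.7 CPM in untreated cells (log2 fold change 0.36, SE 0.0932, adjusted p = 0.00235). With siMondoA it stood at -0.13 (95% interval -0.31 to 0.05, adjusted p = 0.225), and at -0.22 (0.0473) without DXR siMondoA replicate 3. The interaction given for siMlx above is the test of this difference between siMlx and siControl cells. FLCN fell with siMondoA (-0.22, SE 0.0636, adjusted p = 0.00669) and did not pass with siMlx (-0.09) or siControl (0.03).

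**Figure D4:**
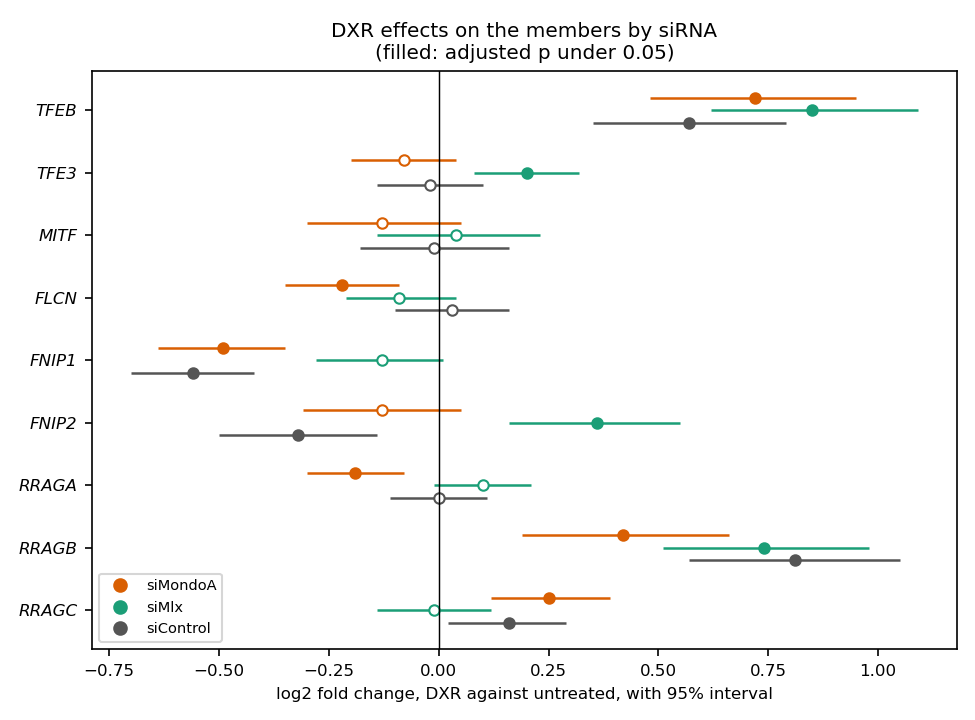
Log2 fold changes of DXR against untreated cells with 95% intervals for the 9 tested members, by siRNA (siMondoA, siMlx, siControl from top to bottom in each gene), filled where the edgeR adjusted p is below 0.05. TFEB and RRAGB are filled with every siRNA, and FNIP2 lies at -0.13, 0.36 and -0.32.

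Some markers of other cell types moved with DXR as well. Of 11 fibroblast markers 8 were tested, and DXR raised 5 and lowered 1 with siMondoA, raised 7 and lowered 0 with siMlx and raised 6 and lowered 2 with siControl. In these comparisons 54.2%, 62.1% and 56.7% of all tested genes passed. Of all tested genes 3583, 4229 and 3841 rose and 3824, 4269 and 3915 fell. POSTN rose with siMondoA (log2 fold change 2.96), siMlx (3.28) and siControl (3.07), and so did THY1 (1.03, 0.71 and 0.79). PDGFRA fell with siMondoA (log2 fold change -0.97) and siControl (-0.57), and PDGFRB with siControl (-0.38). The summed level of the 11 was 761 to 833, 940 to 1110 and 857 to 961 CPM in the DXR siMondoA, siMlx and siControl groups, against 471 to 533, 508 to 646 and 533 to 613 CPM in the untreated groups. THY1, FAP and COL1A1 carry most of it, and TCF21 (15 reads over all libraries) and LUM (62) are near 0. The 16 retinal pigment epithelium markers, MITF included, summed to 2250 to 2300, 1840 to 1930 and 2040 to 2070 CPM in the DXR groups, and to 1560 to 1810, 1190 to 1380 and 1350 to 1550 CPM in the untreated ones. Within that sum KRT8 (log2 fold changes 1.01, 1.27 and 1.00 with siMondoA, siMlx and siControl) and KRT18 (0.67, 1.44 and 0.86) rose under DXR, OTX2 fell (-0.73, -0.43 and -0.63) and MITF did not pass. Of 11 blood and endothelial markers 5 were tested, HBB is at 0 throughout, and their sum of 82.6 to 98.3 CPM in DXR siMlx and 67.1 to 84.9 CPM in untreated siMlx cells was below the other groups. CD68, a gene of the lysosomal membrane, gave most of the reads of that sum (38367, against 728 for KDR, 433 for VWF, 331 for PTPRC and 133 for PECAM1). CD68 fell with siMlx by log2 -0.47 under DXR and -0.68 in untreated cells. The part of these shifts in the members' values was not tested.

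Upstream of the Rags, the Ragulator complex anchors them to the lysosome. Of its 5 genes, 2 fell and none rose with siMlx in untreated cells, where 47.9% of all tested genes passed: LAMTOR3 (log2 fold change -0.57, SE 0.0689, edgeR adjusted p = 1.02e-06) and LAMTOR4 (-0.32). With DXR, siMlx lowered LAMTOR3 too (-0.55) and raised LAMTOR2 (0.25, adjusted p = 0.0459). LAMTOR1 (0.25) and LAMTOR2 (0.32) rose with siMondoA in untreated cells.

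GATOR1, a brake on RagA and RagB, together with GATOR2 and KICSTOR, was represented by 12 genes. DXR lowered 8 of them in siControl cells and the other 4 did not pass, where 3915 of all 13676 tested genes fell, with a median log2 fold change of -0.32 against -0.01 over all tested genes. MIOS of GATOR2 fell (-0.75, SE 0.0937, edgeR adjusted p = 1.34e-06), as did SEH1L (-0.61), a subunit that GATOR2 shares with the nuclear pore. In siMlx cells DXR also lowered 8, with a median of -0.44, and in siMondoA cells 4, with a median of -0.23, where 4269 and 3824 of all tested genes fell with siMlx and siMondoA. NPRL3 of GATOR1 rose with siMlx, by 0.27 under DXR and by 0.34 in untreated cells. With siMondoA in untreated cells 2 of the 12 genes rose and 3 fell, where 46.6% of all tested genes passed. NPRL3 (0.27) and SEC13 (0.19) rose there too, and SEH1L (-0.87) and ITFG2 of KICSTOR (-0.59) were among those that fell.

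Among 9 genes of amino acid sensors, CASTOR1, an arginine sensor listed under its older symbol GATSL3, rose with both siRNAs. With siMondoA it rose by log2 0.62 under DXR and 1.44 in untreated cells (SE 0.119, edgeR adjusted p = 7.43e-09). With siMlx it rose by 0.88 under DXR and 1.49 in untreated cells. The stress-induced sestrin genes SESN1 and SESN2, which restrain mTORC1, rose under DXR in siControl cells by 1.80 and 1.51, with 4 of the 9 genes higher and 1 lower, a share close to the 56.7% called over all tested genes. SESN3 fell with siMondoA (-1.67) and siMlx (-1.78) in untreated cells.

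Of 12 genes of mTORC1, RHEB and TSC, siMlx in untreated cells raised 3 and lowered 1, siMondoA raised 2 and lowered 5, and DXR in siControl cells raised 1 and lowered 6. Over all tested genes 47.9%, 46.6% and 56.7% passed in these comparisons, so the last of the counts is near the background. EIF4EBP1, an mTORC1 substrate, rose with siMlx (log2 fold change 0.73, SE 0.089, edgeR adjusted p = 1.33e-06) and fell with siMondoA (-0.69) in untreated cells. ULK1, the autophagy kinase gene, rose with siMlx (0.60), siMondoA (0.45) and, in siControl cells, DXR (0.60). RPTOR, the subunit that recognises substrates, fell under DXR in siControl cells (-0.37).

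Direct modifiers of TFEB and TFE3 were mixed: of 21 genes, 5 rose and 5 fell with siMlx and 4 rose and 5 fell with siMondoA in untreated cells. These shares are close to the 47.9% and 46.6% of all tested genes. PPP3CA, a catalytic subunit of calcineurin, the phosphatase that dephosphorylates TFEB, rose with siMlx (log2 fold change 0.56) and siMondoA (0.71, SE 0.0652, edgeR adjusted p = 3.19e-08) in untreated cells. PPP3CB, another catalytic subunit, fell with siMlx, by -0.47 under DXR and -0.80 in untreated cells (adjusted p = 1.17e-08). YWHAG, an adaptor of the family that retains phosphorylated TFEB in the cytoplasm, fell with siMlx (-0.77) and siMondoA (-1.14) in untreated cells, whereas YWHAZ of the same family rose with siMlx (0.42) and siMondoA (0.30). DXR in siControl cells raised 4 and lowered 9, where 56.7% of all tested genes passed, with XPO1, the nuclear export receptor, at -0.74 and the lysosomal calcium channel gene MCOLN1, itself also a CLEAR target, at 0.43. TFEC, the remaining gene of the family, rose under DXR in siControl cells, with 45 to 62 reads per library under DXR and 16 to 35 in untreated cells (log2 fold change 1.69, SE 0.238, adjusted p = 5.69e-06), at an average of 0.395 RPKM under DXR and 0.128 RPKM in untreated cells.

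The CLEAR network, the lysosomal and autophagy genes that TFEB binds, was followed through 50 targets outside the members, of which 49 were tested. DXR raised 25 and lowered 5 with siMondoA (median log2 fold change 0.15, against -0.02 over all tested genes). It raised 37 and lowered 4 with siMlx (median 0.43, against 0.00) and raised 30 and lowered 6 with siControl (median 0.38, against -0.01). Over all 13676 tested genes DXR raised 3583 and lowered 3824 with siMondoA (54.2% called), raised 4229 and lowered 4269 with siMlx (62.1%) and raised 3841 and lowered 3915 with siControl (56.7%). GAA, which encodes the lysosomal acid glucosidase, rose by log2 1.45, 2.25 and 1.74 with siMondoA, siMlx and siControl (SE 0.0984, edgeR adjusted p = 5.61e-11 with siControl), and LAMP1, a lysosomal membrane protein gene, by 0.57, 0.88 and 0.68. GUSB, which encodes beta-glucuronidase, fell with all of them (-1.28, -0.72 and -1.12).

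Against siControl, the CLEAR targets were split. In untreated cells 5 rose and 19 fell with siMlx (median -0.08, against 0.02 over all tested genes), and 16 rose and 8 fell with siMondoA (median 0.06, against 0.02), shares called that are close to the 47.9% and 46.6% of all tested genes. The directions were less even than over all tested genes, where 3410 rose and 3143 fell with siMlx and 3185 rose and 3190 fell with siMondoA. Under DXR 9 rose and 2 fell with siMlx, and 2 rose and 7 fell with siMondoA, below the 30.2% and 24.8% called over all tested genes. There 1908 of all tested genes rose and 2221 fell with siMlx, and 1490 rose and 1900 fell with siMondoA. LAMP2, a lysosomal membrane gene needed for autophagosome fusion, fell with siMlx by log2 -0.45 under DXR and -1.11 in untreated cells (SE 0.0746, edgeR adjusted p = 2.52e-10). NRBF2, part of an autophagy lipid kinase complex, rose with siMlx by 0.40 under DXR and 0.69 in untreated cells. The interaction of siMlx with DXR was positive for the 8 targets that passed it, where 12.2% of all tested genes passed, among them LAMP2 (0.67, adjusted p = 0.000291) and the autophagy receptor gene SQSTM1 (0.46).

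**Figure D5:**
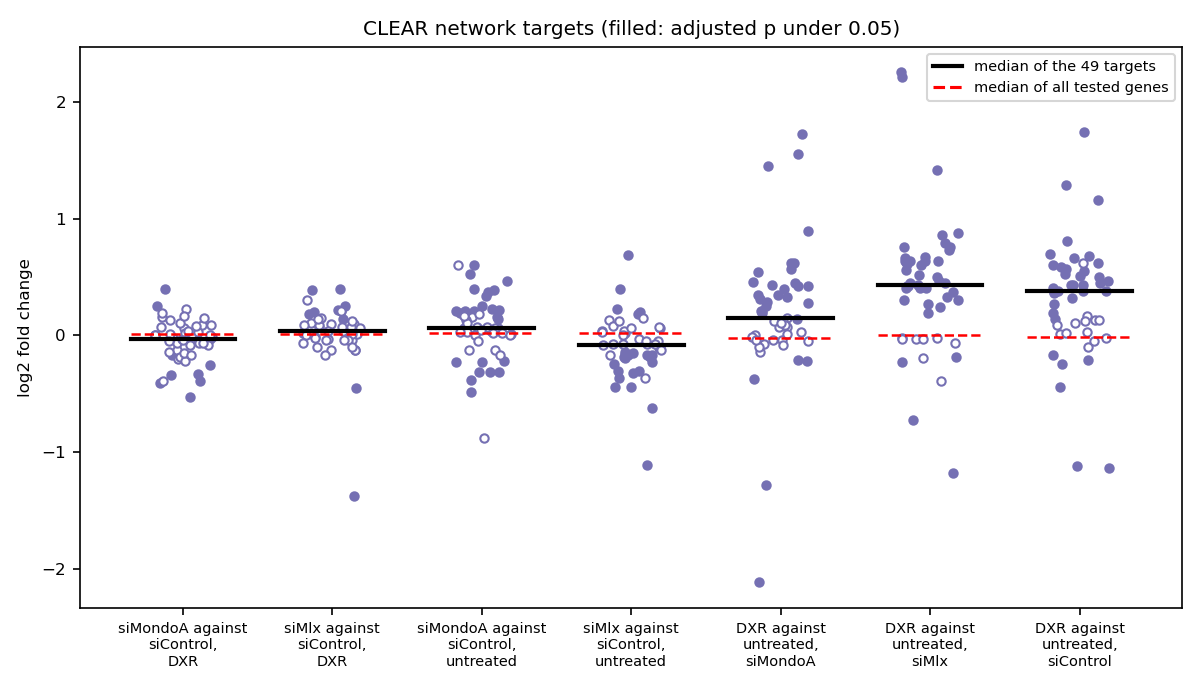
Log2 fold changes of the 49 tested CLEAR targets in 7 comparisons, 1 point per gene, filled where the edgeR adjusted p is below 0.05, with the median of the targets (solid line) and of all tested genes (dashed line). The 3 DXR columns have target medians of 0.15, 0.43 and 0.38, and the 4 siRNA columns, from the left, -0.03, 0.04, 0.06 and -0.08.

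Of 14 targets of MITF known from pigment cells 8 were tested. MET averaged 65.2 RPKM, CDK2 11.7 RPKM and RAB27A 9.4 RPKM over all libraries, whereas MLANA (86 reads over all libraries), TRPM1 (7) and OCA2 (6) were among the 6 too low to test. With siMlx in untreated cells, where MITF fell and 47.9% of all tested genes passed, 1 target rose and 2 fell: BCL2 rose (log2 fold change 0.34, edgeR adjusted p = 0.0259), and MET (-0.47) and RAB27A (-0.35) fell. With siMondoA in untreated cells, where MITF stood at 0.04 and 46.6% of all tested genes passed, 1 target rose and 3 fell. MET rose (0.52), and CDK2 (-1.81) and BCL2 (-2.17) were among those that fell. Under DXR in siControl cells 2 of the 8 tested targets rose and 3 fell, where 56.7% of all tested genes passed. TYRP1, a pigment enzyme gene with 187 reads in all, rose by 3.21 there (SE 0.6, edgeR adjusted p = 0.000143), and GPR143 by 1.9. BCL2 (-1.75) and RAB27A (-0.52) were among those that fell.

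For the 3 members with the widest range, the genes most like them were found by Pearson's r of log2 CPM over the 18 libraries, among 10101 genes with at least 5 CPM on average. For FNIP2 they were DPY19L1, PIGK and RAD23B (r = 0.97 each). For RRAGB they were ATF6B (0.96), ANXA4 (0.96) and RETSAT (0.95), and for TFEB SNED1 (0.97), FIBCD1 (0.97) and DGKA (0.96). All points share the 6 groups, so these values describe a common pattern over groups and carry no p.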

How the data were processed

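Poly(A) RNA libraries were made with a stranded kit, per the labels' protocols. The submitters' processing notes name TopHat2 2.1.1, bcl2fastq and GRCh38, with the counting tool and its strand setting not given in the sources used here. The authors deposited whole-number read counts per gene and, for the same libraries, RPKM, whose implied gene length is the same in every library.

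Counts were fitted in edgeR 4.0.16 (R 4.3.3): filterByExpr, TMM scaling, 1 mean per group over 18 libraries, 12 residual degrees of freedom, a biological coefficient of variation of 7.42%. Tests were two-sided quasi-likelihood tests for 11 contrasts, adjusted by Benjamini-Hochberg over 13676 genes (threshold 0.05). The fit was also run on simulated data, with no outcome given here, so that run does not bear on the calls. RPKM served only for levels between genes. Positions come from GENCODE release 29 and promoters from RefSeq. No 50-base word is shared between members.

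All members were named. Members and lists were chosen with earlier results of these data known. From each list described, the genes named as changed were among the 2 with the smallest p in a direction among those that passed; markers and targets near 0, and those that carry a sum, were named for their levels. The replicate number was checked as a pairing: deviations correlated above 0.1 in every same-numbered pair (0.101 to 0.33) for siMondoA against siControl in both conditions, and under DXR for siMlx against siControl and siMondoA against siMlx. The fit was repeated with DESeq2 1.42.0, with RLE or upper-quartile factors, with other low-count filters, on the contrast's groups alone, with a replicate block and without each library.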

Additional observations from a re-analysis of the deposited data

Results flagged for a closer look

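The effect of siMlx on both FNIP genes differed between DXR-treated and untreated cells by the test of the difference itself, in edgeR. For FNIP2 the difference between the siMlx effects, DXR minus untreated, was log2 0.68 (SE 0.13, adjusted p = 0.00148), and for FNIP1 it was 0.43 (SE 0.1, adjusted p = 0.00603).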

How the results depend on the processing

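Of 99 member comparisons 42 passed, 36 of them in every alternative and 6 not in some, and 7 of the 57 others passed in some. The share of all tested genes that passed ran from 10.1% to 62.1% by comparison, so the count alone does not set the members apart. No called direction was reversed. With siMondoA in untreated cells, 2 members passed, 1 with no low-count filter and 1 to 2 when each library was left out in turn. FLCN was gained there with upper-quartile scaling (adjusted p = 0.0412). With siMondoA under DXR, 0 passed, 1 with upper-quartile scaling, 1 with the replicate block and 0 to 1 when libraries were left out. The siMondoA interaction held 0 members and 1 with upper-quartile scaling. Its count over all genes was 1384 (798 higher, 586 lower; 655 and 788 with upper-quartile scaling), and 918 to 1384 when libraries were left out, 918 without untreated siMondoA replicate 1. The causes were not tested. The replicate block otherwise changed the call of RRAGB with siMlx under DXR and of TFE3 in the siMlx interaction (adjusted p = 0.0494); there the untreated siMlx and siControl libraries share a number but were not paired by their deviations (0.052 to 0.245). Depth limits RRAGD, with 28 reads, and TFEB, with 76 to 180 reads per library.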
